A study of Homo sapiens with 4 samples.

Results

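The genes described here encode 10 components of NODAL and activin signaling: the ligands NODAL, GDF3 and INHBA, the co-receptor TDGF1, the receptors ACVR1B and ACVR2B, the nuclear partner FOXH1, and the secreted inhibitors LEFTY1, LEFTY2 and CER1. They were selected by gene symbol, and all 10 were found among the 17894 genes of the RNA-SEQ tables. H1, a human embryonic stem cell line, was differentiated towards blood in co-culture with mAGM-S3, a mouse stromal cell line, and human cells were sorted at day 2 by the antigen TRA-1-85. There were 4 libraries, all from H1 cells in the same co-culture. The control was wild type and untreated, and the R-spondin2 library was wild type and received R-spondin2 (20 ng/mL) for 1 day. The remaining 2 libraries were LGR4-/- and untreated, numbered 1 and 2 in the labels and called clone 1 and clone 2 here. The labels do not say how LGR4 was disrupted or whether the numbers stand for separately derived clones.

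NODAL and activins are secreted ligands of the TGF-β superfamily. They bind type II receptors such as ACVR2B and type I receptors such as ACVR1B, and NODAL and GDF3 also need an EGF-CFC co-receptor such as TDGF1. The active receptor phosphorylates SMAD2 and SMAD3, which enter the nucleus with SMAD4 and bind DNA together with partners such as FOXH1. LEFTY1, LEFTY2 and CER1 block this signal outside the cell, and the LEFTY genes and CER1 are themselves known targets of the pathway. In human embryonic stem cells the pathway maintains the undifferentiated state, and in the embryo it induces the primitive streak, from which mesoderm and endoderm arise. R-spondins bind LGR4 and related receptors and raise the response to WNT.

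The components were expressed at very different levels. FPKM (fragments scaled for the length of the transcript and the number mapped) can be compared between genes. Over the 4 libraries, the mean was 1874 FPKM for CER1, 213 for TDGF1, 97.8 for NODAL, 95.7 for FOXH1, 52.6 for LEFTY1, 14.8 for GDF3, 12.5 for ACVR2B, 11.9 for ACVR1B, 9.84 for LEFTY2 and 0.198 for INHBA. CER1 held rank 8 of all 17894 genes in the control, rank 1 with R-spondin2, rank 107 in clone 1 and rank 60 in clone 2. It took 0.549% of all FPKM in the control and 0.80% with R-spondin2, against 0.137% in clone 1 and 0.236% in clone 2. Not all neighbours in this order were distinct. NODAL and FOXH1 overlapped in the range of their libraries, and so did GDF3, ACVR2B, ACVR1B and LEFTY2.

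**Figure D1:**
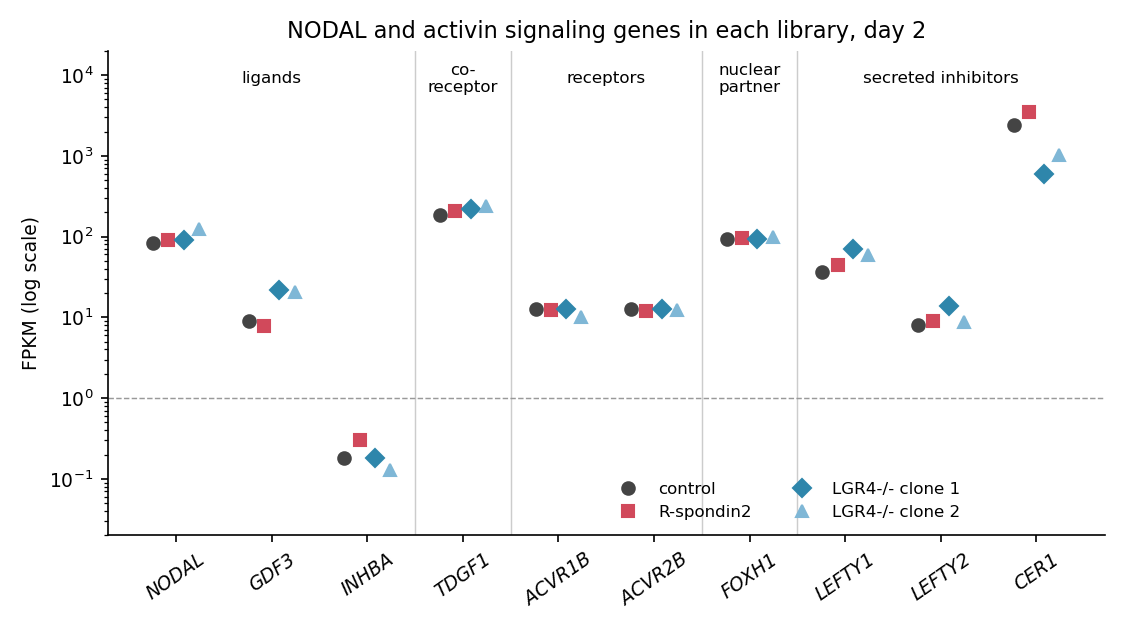
FPKM of the 10 genes in each of the 4 libraries, on a log axis, with 1 point for each library and genes grouped by role; the dashed line marks 1 FPKM. CER1 spans 599 to 3467 FPKM, GDF3 lies higher in both LGR4-/- clones (22.0 and 20.5) than in the control and R-spondin2 libraries (8.92 and 7.88), and the points of FOXH1 and ACVR2B nearly coincide.

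Promoter sequences are shown for 3 of these genes: CER1 and GDF3, which differed most between the LGR4-/- clones and the control, and NODAL, the ligand that gives the pathway its name. They are the 250 bases before the annotated start, from RefSeq on GRCh38.p14. The table of promoters held 6 of the 10 genes, without LEFTY1, LEFTY2, TDGF1 and FOXH1. Capitals mark matches on either strand to TGTNNATT, a core of the FOXH1 binding motif.
CER1, chr9:14722734-14722983, minus strand: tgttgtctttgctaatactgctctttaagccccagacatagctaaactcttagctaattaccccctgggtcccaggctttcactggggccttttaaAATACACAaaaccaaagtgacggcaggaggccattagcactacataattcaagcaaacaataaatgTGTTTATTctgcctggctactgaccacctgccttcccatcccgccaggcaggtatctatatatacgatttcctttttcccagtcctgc
GDF3, chr12:7695776-7696025, minus strand: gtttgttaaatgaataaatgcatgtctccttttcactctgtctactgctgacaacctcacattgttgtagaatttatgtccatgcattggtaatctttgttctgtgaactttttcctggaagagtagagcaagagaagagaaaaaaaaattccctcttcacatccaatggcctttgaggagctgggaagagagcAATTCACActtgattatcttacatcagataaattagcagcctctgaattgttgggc
NODAL, chr10:70441682-70441931, minus strand: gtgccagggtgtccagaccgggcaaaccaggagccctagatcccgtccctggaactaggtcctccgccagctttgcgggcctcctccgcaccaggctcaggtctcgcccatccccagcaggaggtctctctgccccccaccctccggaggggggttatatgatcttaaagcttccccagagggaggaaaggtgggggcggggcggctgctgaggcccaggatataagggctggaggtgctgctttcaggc

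CER1 held 2 such matches, which began 154 and 88 bases before the start, GDF3 held 1 that began 56 bases before it, and NODAL held none in this window. The windows searched were 300 bases long, from 250 before to 50 after the start, and 11.0% of all 35116 promoters had a match to TGTNNATT. The narrower TGTGGATT, every match of which is also a match to TGTNNATT, was in 0.817% of promoters and in none of the 6. The SMAD motif CAGAC was in 45.3% of all promoters and in those of NODAL, GDF3, INHBA and CER1. GTCTAGAC (SMAD, 0.202% of promoters), TCACACCT (T-box, 0.980%) and CTTTGAT (TCF and LEF, 2.62%) were in none of the 6. The CER1 promoter was 45.2% G and C, that of GDF3 38.4% and that of NODAL 65.2%, against a median of 58% over all promoters. These matches describe the letters of the windows, and binding was not measured.

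Differences were computed in log2(FPKM+1) for 12697 genes, those whose mean reached 1 FPKM. This kept 9 of the 10 genes and left out INHBA. Shares of all genes are shares of these 12697. There was 1 library for the control and 1 for R-spondin2, so that neither has a replicate, and the comparisons with the control share that library. The only libraries of the same group were the clones, and the SD over all genes of the difference between them was 0.222, against 0.213 between R-spondin2 and control. Read counts were not used here. Depth was estimated from low FPKM at 8850000 to 9040000 reads per library, and 95% Clopper-Pearson intervals from the reads this implies cover counting error only. In sorted cells, fewer cells of a type and less RNA per cell cannot be told apart.

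LGR4, the gene named in the genotype, was at 21.8 FPKM in the control, 24.3 with R-spondin2, 7.40 in clone 1 and 13.95 in clone 2. Its RNA was lower in both clones than in either wild-type library but was not lost, and it was 0.83 (log2(FPKM+1)) higher in clone 2 than in clone 1.

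The first comparison was that of R-spondin2 with the control. None of the 9 genes differed 2-fold, a size that 0.221% of all genes reached in either direction. None differed 1.5-fold, which 0.536% of all genes reached as higher and 1.46% as lower. The largest difference among the 9 was that of CER1, 0.53 higher in log2(FPKM+1), and 0.725% of all genes lay as far or further up. Values with R-spondin2 were higher for 6 of the 9 genes, while 47.8% of all genes were higher. Their median difference was 0.12, beside -0.01 over all genes.

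The second was that of the LGR4-/- clones with the control. Differences of 2-fold in both clones were found for GDF3, which was higher, and for CER1, which was lower. Among all genes, 0.236% were higher and 1.08% lower by that rule. At 1.5-fold in both clones LEFTY1 was also higher (2.61% of all genes were higher and 3.09% lower at that size). In both clones 5 of the 9 genes were above the control (NODAL, GDF3, TDGF1, LEFTY1 and LEFTY2), beside 42.5% of all genes, and CER1 and ACVR1B were below it, beside 35.5%. The median of the 9 for the mean of the clones was 0.29, beside 0.02 over all genes, but it was 0.11 in clone 1 alone and 0.11 in clone 2 alone.

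The 2 clones were also set against each other. No gene of the 9 differed 2-fold between them, as 0.252% of all genes did. At 1.5-fold CER1 was higher in clone 2, by a log2(FPKM+1) difference of 0.79, and LEFTY2 was lower, by -0.62 (1.35% of all genes were higher and 1.06% lower). Clone 2 was above clone 1 for 4 of the 9 genes, beside 49.2% of all genes. In a limma fit over the 3 groups, in which the single libraries are taken to vary like the clones, 0% of all genes (0 of 12697) passed an adjusted p of 0.05 for LGR4-/- against control, while 2332 had an unadjusted p under 0.05, 4 of these 9 genes among them. The limma adjusted p was 0.0755 for GDF3, 0.0899 for LEFTY1, 0.0968 for CER1 and 0.153 for TDGF1.

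**Figure D2:**
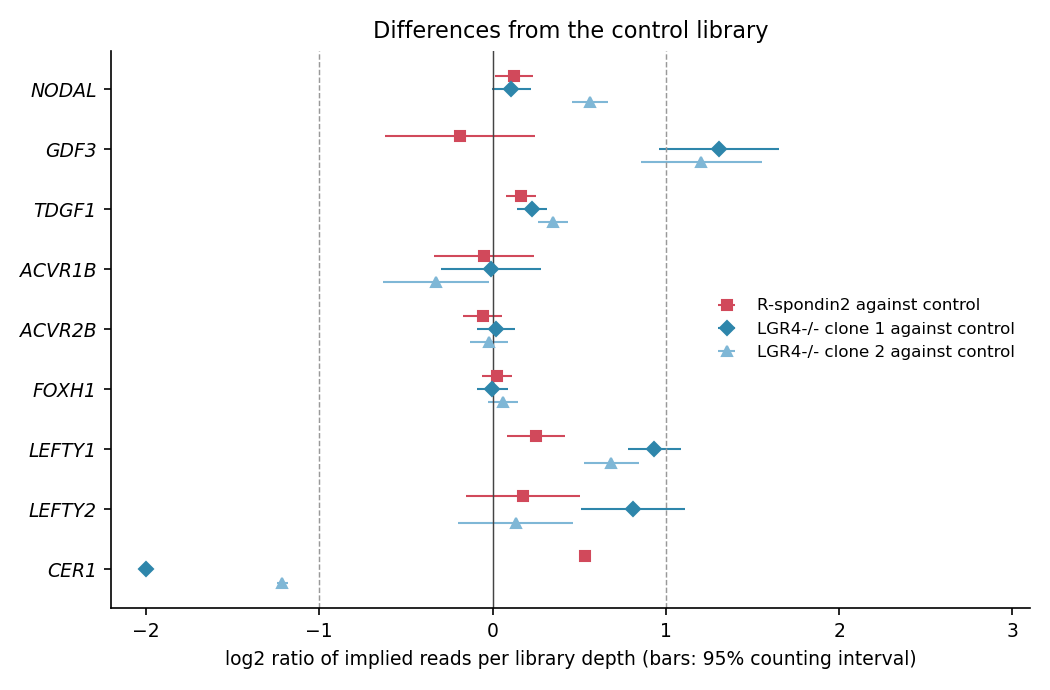
Log2 ratio to the control library of the reads implied per library depth, for the 9 genes that reached a mean of 1 FPKM, in the R-spondin2 library and the 2 LGR4-/- clones; bars are 95% counting intervals and dashed lines mark 2-fold. GDF3 lies at 1.30 and 1.20 and CER1 at -2.0 and -1.21 in the clones, while all intervals of ACVR2B and FOXH1 include 0.

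Among the ligands, NODAL (chr10:70432315-70447951, minus strand, GENCODE 29 on GRCh38) is the founding member of its ligand family and is needed for formation of the primitive streak. NODAL was at 84.2 FPKM in the control, 91.7 with R-spondin2, 90.8 in clone 1 and 124 in clone 2. It was high in a single library, clone 2, and the other 3 lay between 84.2 and 91.7 FPKM. The difference in log2(FPKM+1) was 0.12 with R-spondin2, 0.11 in clone 1 and 0.56 in clone 2, so that the gap between the clones (0.45) was larger than the difference with R-spondin2. Counting alone left the log2 ratio of clone 2 at 0.46 to 0.67, and that of R-spondin2 at 0.01 to 0.23. A gene model on the opposite strand, AC022532.1, overlaps NODAL and shares 40.3% of its 50-base windows. The library kit did not keep strand, and reads of both cannot be told apart there.

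GDF3 (chr12:7689782-7695776, minus strand) encodes a ligand of undifferentiated stem cells that signals through the same receptors as NODAL. GDF3 was at 8.92 FPKM in the control, 7.88 with R-spondin2, 22.0 in clone 1 and 20.5 in clone 2. Both clones were above both wild-type libraries, and the clones differed from each other by 0.10 in log2(FPKM+1), far less than from the control. The difference from the control was 1.21 in clone 1 and 1.12 in clone 2, which is 2.47-fold and 2.30-fold in FPKM. About 100 reads were implied in the control, 242 in clone 1 and 225 in clone 2, and the counting interval of the log2 ratio was 0.96 to 1.65 in clone 1 and 0.85 to 1.56 in clone 2. With R-spondin2 the log2 ratio was -0.19 (interval -0.62 to 0.24), a difference not detectable at this depth. NODAL exceeded GDF3 by 9.44-fold in the control and 11.6-fold with R-spondin2, but by 4.12-fold in clone 1 and 6.05-fold in clone 2. No 50-base window of GDF3 was shared with another gene.

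INHBA encodes the subunit of activin A. INHBA was at 0.18 FPKM in the control, 0.30 with R-spondin2, 0.18 in clone 1 and 0.13 in clone 2, from 7 to 16 implied reads. At this depth no difference between the libraries could be shown: the log2 ratio had an interval of -0.52 to 2.01 with R-spondin2, of -1.39 to 1.45 in clone 1 and of -2.11 to 1.06 in clone 2.

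TDGF1 (chr3:46574534-46582463, plus strand) encodes the co-receptor Cripto, also a marker of undifferentiated cells. TDGF1 was at 186 FPKM in the control, 209 with R-spondin2, 219 in clone 1 and 237 in clone 2. The control was the lowest of the 4 libraries, and the whole range was 1.27-fold. In log2(FPKM+1) it differed from the control by 0.17 with R-spondin2, 0.23 in clone 1 and 0.35 in clone 2, and the clones differed by 0.12. At least as wide a range was found in 49.6% of all genes. The pseudogene TDGF1P3 shares 39.9% of its 50-base windows, so that reads of the 2 may have been exchanged.

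Of the receptors, ACVR2B varied less than ACVR1B. ACVR2B, a type II receptor, was at 12.6 FPKM in the control, 12.1 with R-spondin2, 12.8 in clone 1 and 12.4 in clone 2. Its highest value was 1.05-fold its lowest, a range that 96.7% of all genes equalled or exceeded. ACVR1B, the type I receptor also known as ALK4, was at 12.7 FPKM in the control, 12.3 with R-spondin2, 12.6 in clone 1 and 10.1 in clone 2. Its range was 1.25-fold, and 52.8% of all genes had at least as wide a range. Clone 2 was the lowest, at a log2 ratio of -0.33 to the control (interval -0.63 to -0.02) on 160 implied reads, counted on the shortest of its 3 transcripts, which gives the widest interval.

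FOXH1, on chromosome 8, encodes the forkhead factor that brings the SMADs to many NODAL target genes. FOXH1 was at 94.4 FPKM in the control, 96.0 with R-spondin2, 94.3 in clone 1 and 98.3 in clone 2. Its range of 1.04-fold was the narrowest of the 10 genes, and 98.2% of all genes had at least as wide a range. The interval of the log2 ratio was -0.06 to 0.11 with R-spondin2, -0.09 to 0.09 in clone 1 and -0.03 to 0.15 in clone 2. KIFC2 on the opposite strand overlaps it and shares 30.2% of its 50-base windows.

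Of the secreted inhibitors, CER1 (chr9:14719724-14722717, minus strand) encodes Cerberus, which binds NODAL, BMP and WNT ligands and is made in the embryo by anterior endoderm. CER1 was at 2395 FPKM in the control, 3467 with R-spondin2, 599 in clone 1 and 1034 in clone 2. R-spondin2 was the highest library and both clones were below both wild-type libraries, with clone 1 the lowest. The difference from the control in log2(FPKM+1) was 0.53 with R-spondin2 (1.45-fold), -2.0 in clone 1 (4.0-fold lower) and -1.21 in clone 2 (2.32-fold lower). The 2 clones differed by 0.79, which is more than the difference between R-spondin2 and control. At least 6446 reads were implied in each library, and the interval of the log2 ratio with R-spondin2 was 0.51 to 0.56, which is narrow beside the gap between the clones. A difference as low as that of CER1 or lower was found for 0.354% of all genes in clone 1 and for 0.701% in clone 2. Its 50-base windows were shared with no other gene.

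LEFTY1 (chr1:225886282-225911382, minus strand) and LEFTY2 (chr1:225936598-225941489, minus strand) are neighbours that encode inhibitors of NODAL and of its co-receptor. LEFTY1 was at 36.9 FPKM in the control, 43.9 with R-spondin2, 70.4 in clone 1 and 59.3 in clone 2. Both clones were above both wild-type libraries. In log2(FPKM+1) the difference from the control was 0.92 in clone 1 and 0.67 in clone 2, and that with R-spondin2 (0.25) was close in size to the gap between the clones (0.24). LEFTY2 was at 7.93 FPKM in the control, 8.92 with R-spondin2, 13.9 in clone 1 and 8.66 in clone 2. It was high in clone 1 only, and clone 2 lay between the 2 wild-type libraries, at a log2 ratio to the control of 0.13 (interval -0.20 to 0.47).

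The open reading frames of LEFTY1 and LEFTY2 were 97.2% identical over 1101 bases, and 31.3% of the 50-base windows of LEFTY1 occurred in LEFTY2. A further gene model on the same strand, AL117348.2, shares 52.9% of the windows of LEFTY1. The division of reads between them is therefore uncertain. The sum of LEFTY1 and LEFTY2 was 44.8 FPKM in the control, 52.8 with R-spondin2, 84.3 in clone 1 and 68.0 in clone 2, again with both clones above both wild-type libraries.

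The inhibitors thus differed in direction. CER1 was lower in both clones while LEFTY1 was higher, and the sum of the 3 inhibitors was 2440 FPKM in the control, 3520 with R-spondin2, 683 in clone 1 and 1102 in clone 2. CER1 made up 98.2% of that sum in the control, 98.5% with R-spondin2, 87.7% in clone 1 and 93.8% in clone 2. The ratio of CER1 to NODAL was 28.5 in the control and 37.8 with R-spondin2, against 6.60 in clone 1 and 8.31 in clone 2. That of CER1 to both LEFTY genes together was 53.5, 65.6, 7.11 and 15.2 in the same order.

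**Figure D3:**
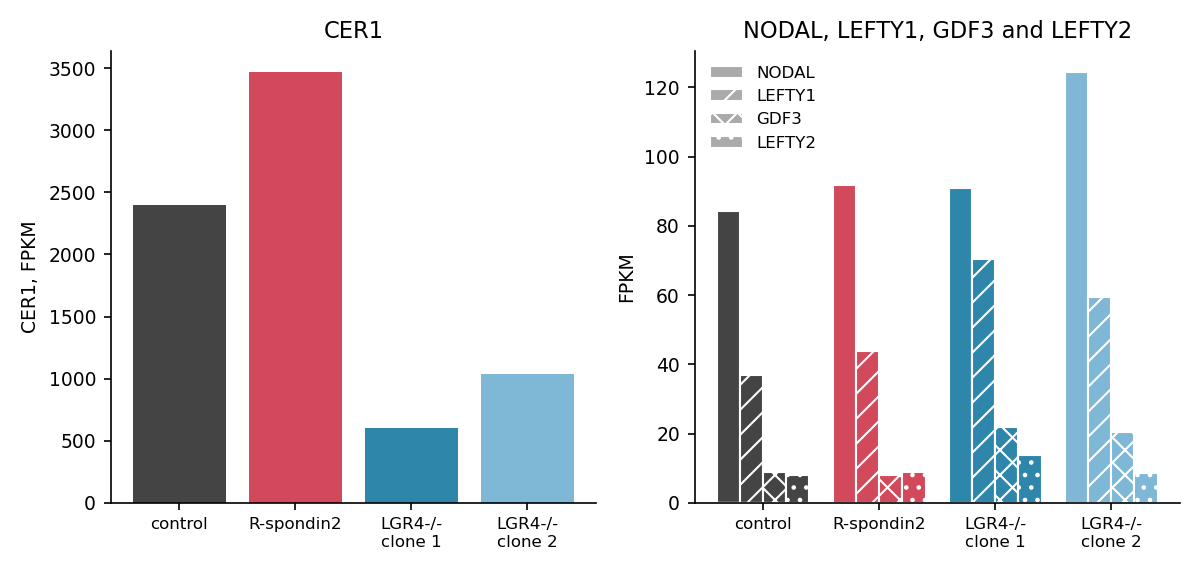
FPKM in each library of CER1 (left) and of NODAL, LEFTY1, GDF3 and LEFTY2 (right), as bars from 0 without error bars because each bar is 1 library. CER1 is lowest in the LGR4-/- clones (599 and 1034 FPKM), where LEFTY1 (70.4 and 59.3) and GDF3 (22.0 and 20.5) are highest.

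A list of other pathway genes was compared in the same way. It held 51 genes in the tables, of which 47 reached a mean of 1 FPKM. None differed 1.5-fold with R-spondin2, beside 0.536% of all genes higher and 1.46% lower. The median difference was 0.08 in log2(FPKM+1), beside -0.01 over all genes. In both clones 0 were higher 2-fold and 2 were lower, BAMBI and CFC1B, beside 0.236% and 1.08% of all genes. At 1.5-fold 1 was higher and 7 were lower, beside 2.61% and 3.09% of all genes. The median for the mean of the clones was -0.09, beside 0.02 over all genes. Without the 13 known targets the median was 0.07 with R-spondin2 and -0.04 for the clones.

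BAMBI encodes a pseudoreceptor that dampens TGF-β family signals. BAMBI was at 76.3 FPKM in the control, 92.5 with R-spondin2, 26.3 in clone 1 and 35.6 in clone 2, in the same order of libraries as CER1. CFC1B encodes Cryptic family protein 1B, a relative of TDGF1. CFC1B was at 3.43 FPKM in the control, 2.70 with R-spondin2, 0.64 in clone 1 and 1.17 in clone 2. For CFC1B only 33 reads were implied in the control, 6 in clone 1 and 11 in clone 2. The counting interval of its log2 ratio in clone 2, -2.69 to -0.53, includes changes under 2-fold. CFC1, its close copy, did not reach the filter (1.55, 1.14, 0.22 and 0.00 FPKM in the same order), and reads of the 2 may have been exchanged.

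The other ligands and receptors were mostly low, while the levels of the inhibitors ranged widely. GDF11 had a mean of 5.76 FPKM, GDF1 of 2.25 and INHBE of 1.80, and INHBC and INHA were below 1. Among receptors, ACVR2A differed by -0.70 in clone 1 and -0.40 in clone 2 in log2(FPKM+1), while TGFBR3 had a mean of 1.12 FPKM. FURIN, a convertase that cleaves NODAL precursors, differed by -0.43 and -0.32, and PCSK5 and PCSK6 had means of 1.60 and 1.42 FPKM. FST, the activin antagonist follistatin, was at 120 FPKM in the control, 110 with R-spondin2, 61.6 in clone 1 and 85.25 in clone 2. NCLN, part of a complex that antagonises NODAL, was between 54.7 and 58.6 FPKM in all 4 libraries.

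The intracellular genes were compared in the same way. Of the 11 SMADs and their regulators, none was 1.5-fold different in both clones, beside 2.61% of all genes higher and 3.09% lower. Finding none in so small a set is near these shares. The median for the mean of the clones was -0.02, beside 0.02 over all genes. TRIM33 had a mean of 13.2 FPKM, SMAD7, an inhibitory SMAD, of 12.8 and SMURF1 of 11.3. SMAD2 and SMAD3, the SMADs of this pathway, were singled out after their values were seen. SMAD2 differed by -0.15 in clone 1 and -0.14 in clone 2, and SMAD3 by -0.65 and -0.45. The nuclear partners TGIF1, DRAP1 and CITED2 had means of 74.2, 69.6 and 56.5 FPKM. None of the 6 genes with that role differed 1.5-fold in both clones, beside 2.61% of all genes higher and 3.09% lower. Here too, finding none is near the shares of all genes.

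**Figure D4:**
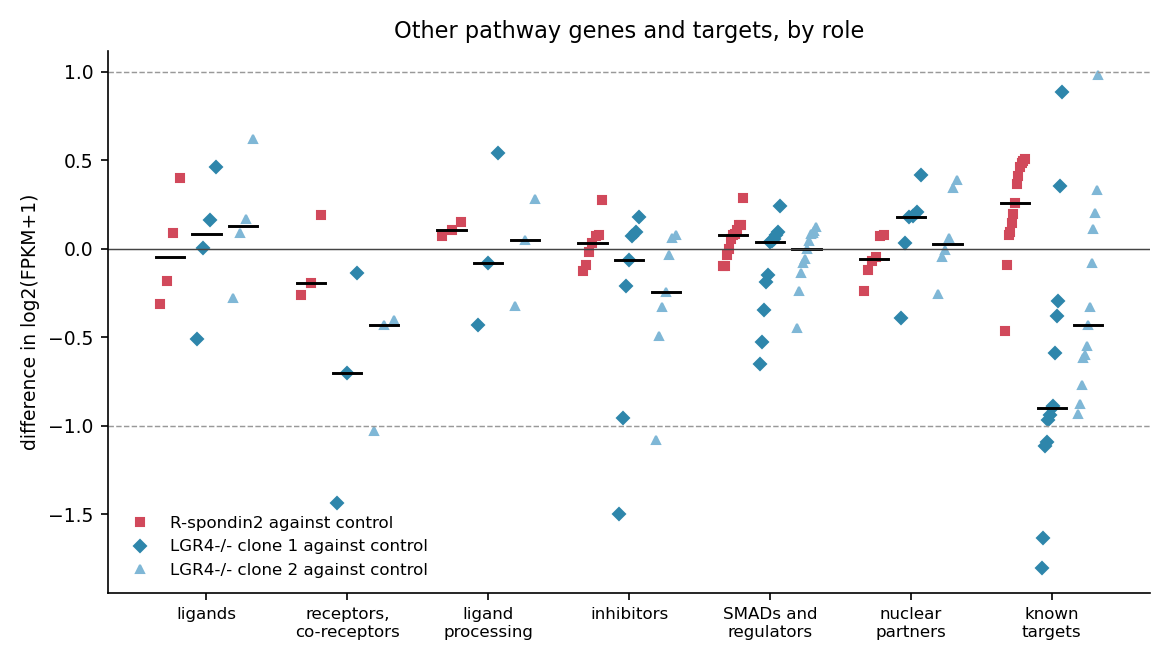
Difference from the control in log2(FPKM+1) of the 47 other pathway genes, by role, in the R-spondin2 library and the 2 LGR4-/- clones; each point is a gene, black bars are medians and dashed lines mark 2-fold. The known targets had medians of 0.26 for R-spondin2, -0.90 for clone 1 and -0.43 for clone 2.

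The 13 known targets are genes that NODAL or activin is known to switch on in stem cells or in the embryo. With R-spondin2 11 were higher and 2 lower, with a median of 0.26, beside 47.8% of all genes higher and a median of -0.01. None differed 1.5-fold, beside 0.536% of all genes higher and 1.46% lower. In both clones 9 were lower and 2 higher, beside 35.5% of all genes lower and 42.5% higher. At 1.5-fold in both clones 5 were lower and 1 higher, beside 3.09% and 2.61% of all genes. MIXL1, a homeobox gene of the primitive streak, was at 377 FPKM in the control, 528 with R-spondin2, 174 in clone 1 and 257 in clone 2. EOMES, a T-box factor of mesoderm and endoderm, was at 117, 157, 54.6 and 77.1 FPKM in that order. T, which encodes BRACHYURY, was at 70.3, 77.8, 37.6 and 66.5 FPKM, and clone 2 was close to the control. These values ran in the same order of libraries as those of CER1, while NODAL itself did not.

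Of the 4 targets that were not lower in both clones, HHEX and FGF8 were below the control in clone 1 and above it in clone 2, and NANOG and FOXA2 were higher in both. These 4 genes were named after their values were seen. NANOG, a pluripotency factor, was at 28.1 FPKM in the control, 20.1 with R-spondin2, 52.8 in clone 1 and 56.4 in clone 2. FOXA2, an endoderm factor, was at 9.05, 8.44, 11.9 and 11.6 FPKM. GDF3, NANOG and FOXA2 were thus highest in the clones and lowest with R-spondin2.

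Markers of cell state moved with these genes. All 6 markers of human embryonic stem cells were higher in both clones, beside 42.5% of all genes. All 6 were lower with R-spondin2, beside 51.9% of all genes. Their sum was 1307 FPKM in the control, 996 with R-spondin2, 2149 in clone 1 and 1942 in clone 2. All 7 markers of primitive streak and mesoderm were lower in both clones, beside 35.5% of all genes. With R-spondin2 6 of 7 were higher, beside 47.8% of all genes. In clone 2, KDR and T were close to the control (-0.06 and -0.08 in log2(FPKM+1)), with counting intervals that included 0. The sum of the 7 markers was 1070, 1398, 378 and 589 FPKM in that order. NANOG, T, MIXL1 and EOMES are in these lists and also among the known targets. Of the 5 endoderm markers FOXA1, AFP and TTR were below 1 FPKM in all libraries, and the sum, most of which was SOX17, was 57.3, 59.3, 36.8 and 40.2 FPKM. Of the 5 neuroectoderm markers only OTX2 exceeded 1 FPKM, and SOX1 was listed at 0 in both wild-type libraries. Sums of the 8 stromal genes ran from 223 to 309 FPKM, highest with R-spondin2. Of the 7 that reached a mean of 1 FPKM, 6 were higher with R-spondin2, beside 47.8% of all genes. At 1.5-fold 2 were higher with R-spondin2 and 0 lower, beside 0.536% and 1.46% of all genes. In both clones 4 of the 7 were lower and 2 higher, beside 35.5% and 42.5% of all genes. Of the 3 extraembryonic markers in the tables the sum was 2.51 FPKM in the control, 2.01 with R-spondin2, 0.39 in clone 1 and 0.70 in clone 2. GATA3, which alone of the 3 reached a mean of 1 FPKM, was at 1.81, 1.90, 0.18 and 0.37 FPKM in that order. Only 4 reads of GATA3 were implied in clone 1 and 9 in clone 2. The part of these cell-state differences in the values of CER1, GDF3, LEFTY1 and the targets was not tested.

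The genes whose differences were most like those of NODAL were ANKHD1, PINK1, GAL, SAT1 and MED21. Likeness was the Euclidean distance over the 3 differences from the control in log2(FPKM+1), among the 9020 genes that reached a mean of 5 FPKM, and it ran from 0.03 for ANKHD1 to 0.15 for MED21. As the 5 smallest of 9020 distances over 4 libraries that share a control, they are a description. ANKHD1 was at 12.1 FPKM in the control, 13.6 with R-spondin2, 13.1 in clone 1 and 18.3 in clone 2. GAL, which encodes the neuropeptide galanin, was at 364, 413, 398 and 493 FPKM in that order, also highest in clone 2.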

How the data were processed

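RNA-SEQ was performed on TRA-1-85+ cells sorted at day 2, 1 library for each of the control, R-spondin2, LGR4-/- clone 1 and clone 2, with groups taken from the sample labels. The authors deposited FPKM to 2 decimals for 17894 genes, scaled by them for transcript length and depth. The submitters' processing notes name hg19, BWA, Bowtie and RSEM without roles. Counts were not used, and FPKM do not take out differences in RNA composition. The 10 genes and all gene lists were chosen with earlier results of these data known.

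FPKM were compared as log2(FPKM+1), which understates the change of low genes, where the mean reached 1 FPKM. A gene was called at 2-fold, for LGR4-/- in both clones. Other genes named were LGR4, listed pathway genes called or among the 3 highest of their role, and the 5 genes nearest to NODAL. Depth was estimated as the total that brought the most low values (under 0.6 FPKM, transcripts under 1500 bases) near whole reads (77.2% to 78.5% within 0.2 of a whole read, 28.1% to 38.7% with lengths shuffled among genes). Lengths, coordinates and shared 50-base windows came from GENCODE 29 on GRCh38, not the authors' build. Reads of genes with several transcripts were computed on the shortest. The steps were tested on simulated data. R 4.3.3 with limma 3.58.1 and Python 3.11.15 with biopython 1.88, pandas 2.3.3, scipy 1.17.1 and numpy 2.4.6 were used. Alternatives were another pseudocount, filter, threshold, scaling or reference library, each clone left out, and limma.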

Additional observations from a re-analysis of the deposited data

How the results depend on the processing

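Differences of single genes were recomputed under a pseudocount of 0.1, rescaling by median ratio, or with R-spondin2 as the reference library. Of 63 such differences, 58 stayed within a limit set for each and 5, all of them means of the clones, moved further. For means of the clones the limit was the SD of that gene between the clones, which is wide where the clones differ. For the other differences the limit came from the width of the counting interval. CER1 stayed within its limit although its mean of the clones went from -1.61 to -2.14 against R-spondin2. Filters on low values leave a gene's own difference as it is. Of the 5, GDF3 moved to 1.24 with the pseudocount of 0.1 and to 1.33 against R-spondin2. Against R-spondin2, LEFTY1 was at 0.55, TDGF1 at 0.12 and ACVR2B at 0.05. Single clones decided some means: NODAL, at 0.33 for the mean of the clones, was at 0.11 without clone 2 and 0.56 without clone 1, LEFTY2 (0.42) at 0.73 and 0.11, and ACVR1B (-0.15) at -0.003 and -0.30. ACVR2B and FOXH1, both near 0, changed sign between the clones. CER1, GDF3 and LEFTY1 passed 1.5-fold in both clones, so leaving out either clone could not change their direction. For the 9 genes in LGR4-/- against control, 2 calls became 1 without CER1 and 0 by limma, and the median of 0.29 was 0.11 with either clone left out. Between the clones, calls went from 0 to 2 at 1.5-fold. For the other pathway genes in LGR4-/-, 2 calls became 1 at a minimum of 5 FPKM, 8 at 1.5-fold, 7 against R-spondin2 and 0 by limma, and they ran from 2 without clone 1 to 6 without clone 2. The limma fit had 1 residual degree of freedom; the cause of the other shifts was not tested. No paired analysis was possible because the groups share no replicate numbers beyond single libraries. Depth limited INHBA, GDF3 and LEFTY2 most, with single libraries at 7 to 256 implied reads.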
